A study of Mus musculus with 16 samples.

Results

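The genes that store, take up, release and sense iron were followed in mouse bone marrow-derived macrophages (BMMs) in which γ-secretase was inhibited during activation. The 10 genes were taken by symbol, for their known role in iron handling: Fth1, Ftl1, Ncoa4, Tfrc, Steap3, Slc11a2, Slc11a1, Slc40a1, Aco1 and Ireb2. Each matched 1 of the 47069 genes of the count table, and all 10 were among the 13211 genes that passed the filter on low counts. BMMs of wild type C57BL/6 mice aged 8 to 10 weeks were grown in L929-conditioned medium and harvested on day 7. Both groups were primed overnight with 10 ng/mL IFNγ and activated for 1 hr with 100 ng/mL Salmonella LPS together with immune complexes of ovalbumin and rabbit IgG (LPS/ICs). The GSI group received DAPT, an inhibitor of γ-secretase (GSI), at 25 μM, and the other group the vehicle DMSO at 0.01%, which according to the methods was present overnight before activation. The inhibitor prevents the release of the Notch intracellular domain, but γ-secretase also cleaves other membrane proteins, and BMMs that were not activated were not analysed here. There were 2 libraries per group, and nothing in the labels says that they came from separate cultures or mice, so that the p-values measure only the spread between these libraries.

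Macrophages handle more iron than most cells because they digest aged red blood cells and return the iron to the circulation. Iron that is not used is stored in ferritin, a hollow shell built of heavy chains, which oxidize iron, and light chains, which help to form the mineral core. Iron enters through the transferrin receptor, is reduced in the endosome, crosses into the cytosol through divalent metal transporters and leaves through ferroportin, the only known iron exporter of mammalian cells. Iron regulatory proteins bind stem-loops in the messages of several of these genes, the iron-responsive elements (IREs), when iron is scarce. Such binding blocks translation when the element lies in the 5′ UTR and protects the message from decay when it lies in the 3′ UTR. Macrophages exposed to bacterial products are known to hold iron back from microbes.

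The element that links these genes could be read in the mouse genome. Protein-coding transcripts (GENCODE M21 on GRCm38, the build also called mm10) were searched over their whole length, coding part included. The pattern was an unpaired C, a stem of 5 paired bases, the loop CAGTGN and at least 3 pairs among the next 6 positions. A match was found in 4 of the 10 genes, always in a UTR. Anywhere in a transcript, it was found in 132 of 21901 genes with a protein-coding transcript (0.603%). The sites are shown because they separate the messages controlled at the 5′ end from the message controlled at the 3′ end. The loop is in capitals, and each sequence is given 5′ to 3′ on the strand of the gene.

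Fth1, 5′ UTR, chr19:9982732-9982760, plus strand: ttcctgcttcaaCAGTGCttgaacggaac
Ftl1, 5′ UTR, chr7:45459779-45459807, minus strand: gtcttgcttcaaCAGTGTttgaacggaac
Slc40a1, 5′ UTR, chr1:45925465-45925493, minus strand: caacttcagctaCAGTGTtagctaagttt
Tfrc, 3′ UTR, chr16:32631219-32631247, plus strand: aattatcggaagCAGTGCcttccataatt
Tfrc, 3′ UTR, chr16:32631598-32631626, plus strand: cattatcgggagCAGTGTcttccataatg
Tfrc, 3′ UTR, chr16:32631663-32631691, plus strand: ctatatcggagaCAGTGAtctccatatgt
Tfrc, 3′ UTR, chr16:32631710-32631738, plus strand: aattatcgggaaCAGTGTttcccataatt

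The 2 ferritin genes and the exporter gene Slc40a1 held 1 site each in the 5′ UTR, and Tfrc held 4 in the 3′ UTR. The other 6 genes had no match to this pattern, which says only that these letters were not in their annotated protein-coding transcripts. Counts of mRNA do not measure the translation that the 5′ elements control.

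The ferritin genes rose with GSI. Fth1, the heavy chain gene, rose 2.23-fold and Ftl1, the light chain gene, 1.51-fold. Of the other 8 genes, Slc11a2, Ncoa4 and Steap3 rose by less than Fth1, and Tfrc, Slc11a1, Slc40a1, Aco1 and Ireb2 did not pass the test. Over all 13211 tested genes, at a false discovery rate (FDR, Benjamini-Hochberg) under 0.05 in the quasi-likelihood test of edgeR, 5 of the 10 genes were higher with GSI and 0 were lower. Many genes passed the same test in these libraries: 40.8% of all tested genes were called, 19.0% higher and 21.9% lower with GSI. At an unadjusted p under 0.05 the numbers were 6 higher and 0 lower, where 23.8% of all tested genes were higher and 25.3% lower. In DESeq2 they were 4 and 0, where 11.9% and 16.5% of the 14213 genes with an adjusted p were higher and lower. The median log2 fold change was 0.24 over the 10 genes and 0.01 over all tested genes. The groups did not overlap in 6 of the 10 genes, with GSI the higher in each, while 70.6% of all tested genes did not overlap in either direction. None of the 10 passed the study's second threshold, an absolute log2 fold change above 1.5 beside the FDR (0 of 10), which 2.91% of all tested genes passed.

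**Figure D1:**
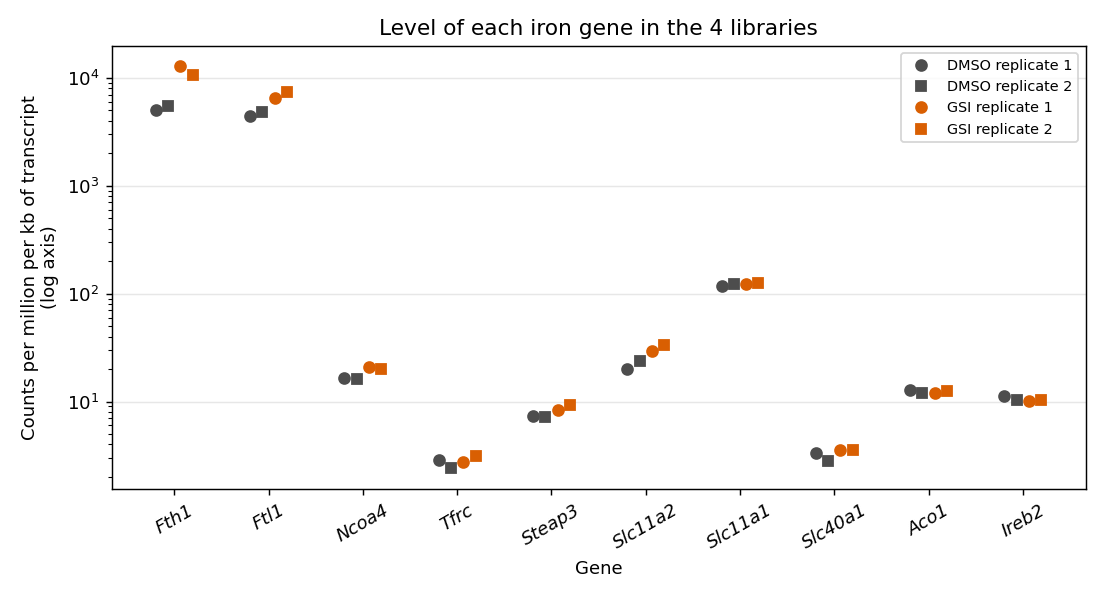
Level of the 10 iron genes in each library, as counts per 1000000 and per kb of the principal transcript on a log axis, with DMSO libraries in grey and GSI libraries in orange (circles for replicate 1, squares for replicate 2). Fth1 and Ftl1 lie between 4414 and 12866 on this scale and the other genes at or below 127, and the GSI libraries stand above the DMSO libraries most clearly for Fth1.

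The levels of the 10 genes spanned more than 3 orders of magnitude, compared as CPM (counts per 1000000, with library sizes scaled by TMM) per kb of the principal GENCODE transcript. In the DMSO libraries Fth1 stood highest at 5074 and 5466, followed by Ftl1 at 4414 and 4863. Slc11a1 came next at 119 and 124, far above Slc11a2 at 20.0 and 23.5 and Ncoa4 at 16.6 and 16.1. The genes of the iron regulatory proteins followed, with Aco1 at 12.7 and 12.0 and Ireb2 at 11.3 and 10.3. Steap3 measured 7.37 and 7.26. The exporter Slc40a1, at 3.31 and 2.82, and the receptor Tfrc, at 2.89 and 2.40, were the lowest. Slc40a1 was above Tfrc in each DMSO library, although the ranges of the 2 genes over the libraries overlapped. With GSI the order of the group means was the same, and the ranges of all neighbours were separate, those of Slc40a1 (3.58 and 3.54) and Tfrc (2.75 and 3.11) included. This order depends on the length taken. Per kb of all annotated exons, Tfrc was above Slc40a1 in every library (2.29 and 1.90 against 1.24 and 1.06 with DMSO), and Ftl1 above Fth1. On that scale Ncoa4, at 5.92 and 5.75 with DMSO, also lay below Aco1 and Ireb2.

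Fth1 (chr19:9980598-9985098, plus strand, GRCm38) was measured at 4713 and 5078 CPM with DMSO, against 11953 and 9903 CPM with GSI. Both GSI libraries were far above both DMSO libraries, and the first GSI library was above the second. The log2 fold change was 1.16 (SE 0.09, FDR 2.8e-09 by edgeR, n = 2 per group), and 98.5% of the tested genes had a smaller signed change. Leaving out each library in turn gave values from 1.02 to 1.29.

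Ftl1 (chr7:45457944-45459884, minus strand) measured 4273 and 4708 CPM with DMSO and 6350 and 7187 CPM with GSI. The groups did not overlap, and here the second GSI library was the higher. The log2 fold change was 0.59 (SE 0.08, FDR 8.2e-06 by edgeR). The 95% interval of the log2 fold change was 0.97 to 1.34 for Fth1 and 0.42 to 0.76 for Ftl1. These intervals did not overlap, but the difference between the changes of the 2 genes was not tested in a model.

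Together the 2 genes took 0.906% and 0.975% of all counts with DMSO, which rose to 1.82% and 1.70% with GSI. The widest 95% Wilson interval of these shares was 0.00754 percentage points, which covers counting error only and is far smaller than the gap between the groups. The ratio of Fth1 to Ftl1, per kb of principal transcript (929 bases for Fth1 and 968 bases for Ftl1), came to 1.15 and 1.12 for DMSO, against 1.96 and 1.44 for GSI. Both GSI libraries had a higher ratio, and that of GSI replicate 2 lay nearer to the DMSO libraries than to GSI replicate 1. The ratios are given as values with no test, and an exact permutation test of 2 libraries against 2 could not give a two-sided p below 0.333. Per kb of all annotated exons, which number 3469 bases in Fth1 and 1340 in Ftl1, the same ratios were 0.426 and 0.417 against 0.727 and 0.532. The choice of length therefore turned the order of the 2 chains but left the GSI libraries above the DMSO libraries.

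**Figure D2:**
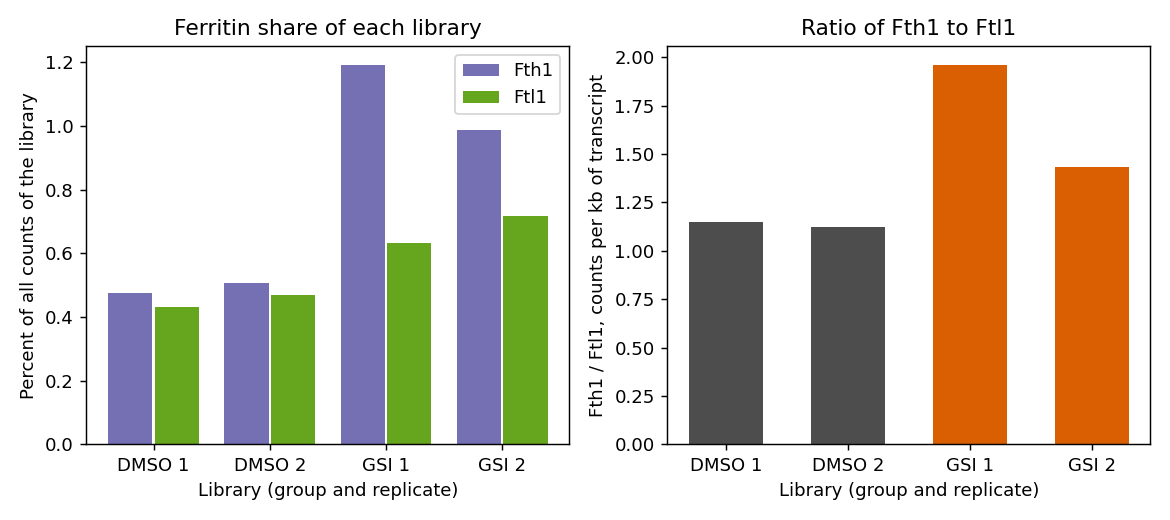
Left, the percent of all counts of each library that fell on Fth1 (purple) and Ftl1 (green); right, the ratio of Fth1 to Ftl1 in counts per kb of principal transcript, with DMSO libraries in grey and GSI libraries in orange. The bars of the ratio stand at 1.15 and 1.12 for DMSO and reach 1.96 and 1.44 for GSI.

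Ferritin genes have many processed copies in the genome, whose reads can be confused with those of the parent gene. The table held counts for 3 rows of light chain copies, of which Ftl1-ps1 was the largest with 214 and 250 counts for DMSO and 308 and 537 for GSI. All light chain copies together came to between 0.102% and 0.155% of the Ftl1 counts. The heavy chain copy Fth-ps2 held between 0 and 3 counts per library. The X-linked Fthl17 genes and the mitochondrial ferritin gene Ftmt were at 0 in all libraries. Adding the copies to their parents left the ratio of the raw counts, 1.10 and 1.08 for DMSO and 1.88 and 1.38 for GSI, at the same values to 3 significant digits. Reads that match several places were not analysed here. Exons of Ftl1 also overlap a miRNA gene that held 0 counts (Gm22133) and, over 355 bases on the other strand, the gene Gm10252, which was not analysed here.

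Ncoa4 (chr14:32159865-32179855, plus strand) encodes the receptor that carries ferritin to the lysosome, where its iron is set free. It measured 55.4 and 53.9 CPM with DMSO and, without overlap, 70.4 and 66.6 CPM with GSI. The rise was 0.33 on the log2 scale (SE 0.07, FDR 0.0011 by edgeR). Its 95% interval, 0.18 to 0.48, overlapped that of Ftl1, and with trends of GC content and length removed both genes gave 0.47. The rise no longer passed (FDR 0.249) when the test was made against a change of 1.2-fold, a threshold chosen after the data were seen.

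Among the uptake genes, Tfrc (chr16:32608920-32632794, plus strand), the transferrin receptor, measured 14.2 and 11.7 CPM with DMSO and 13.5 and 15.2 CPM with GSI. The groups overlapped. The log2 fold change was 0.15 with a 95% interval of -0.06 to 0.37 (FDR 0.252 by edgeR), an interval that holds the value of Ncoa4. Leaving out a library moved the value between 0.02 and 0.29.

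Steap3 (chr1:120190757-120272705, minus strand) encodes the endosomal reductase that prepares iron for export from the endosome. It measured 21.6 and 21.3 CPM with DMSO, against 24.5 and 27.2 CPM with GSI. The groups did not overlap and the log2 fold change was 0.27 (SE 0.08, FDR 0.014 by edgeR). This call was lost under more of the alternatives than that of any other gene. The FDR was 0.0554 in DESeq2, 0.0702 without DMSO replicate 2 (log2 fold change 0.25) and 0.134 without GSI replicate 2 (0.19).

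Slc11a2 (chr15:100387898-100425072, minus strand) encodes DMT1, the divalent metal transporter of the endosome. It measured 60.5 and 71.1 CPM with DMSO and 89.3 and 100.6 CPM with GSI. All values with GSI were above those with DMSO, and the log2 fold change was 0.53 (SE 0.08, FDR 3.7e-05 by edgeR). Leaving out each library gave 0.42 to 0.65. An overlapping gene on the other strand, Gm5475, shares 402 exon bases with it but held only 1 to 4 counts per library.

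Slc11a1 (chr1:74375195-74386062, plus strand) encodes NRAMP1, which pumps metal ions out of the phagosome of macrophages, and C57BL/6 mice are known to carry a loss-of-function allele of it. It measured 275 and 286 CPM with DMSO, against 283 and 294 CPM with GSI. The groups overlapped, and the 95% interval of the log2 fold change, -0.11 to 0.18 around 0.04, did not reach the change of its relative Slc11a2 (FDR 0.691 by edgeR). With trends of GC content and length removed the value was -0.040. The transporters of endosome and phagosome thus gave unequal values, although the difference between them was not tested in a model.

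Slc40a1 (chr1:45908068-45926523, minus strand), the ferroportin gene, measured 11.2 and 9.52 CPM with DMSO and 12.1 and 11.9 CPM with GSI. Both GSI libraries were the higher, by a log2 fold change of 0.22 (SE 0.10). The FDR was 0.0907 by edgeR, on the far side of the threshold. It fell to 0.0398 without DMSO replicate 1, where the log2 fold change was 0.33, and was between 0.126 and 0.587 without each of the others. Without DMSO replicate 2 the log2 fold change was 0.10, and with trends of GC content and length removed it was 0.35. Between 480 and 589 counts lay behind each value.

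The iron sensors did not pass the test. Aco1 (chr4:40143081-40198338, plus strand), which encodes the cytosolic aconitase that becomes iron regulatory protein 1 when it loses its iron-sulfur cluster, measured 48.7 and 46.2 CPM with DMSO and 45.6 and 47.6 CPM with GSI. Ireb2 (chr9:54863789-54912530, plus strand), the gene of iron regulatory protein 2, measured 65.1 and 59.2 CPM with DMSO and 58.2 and 59.4 CPM with GSI. The groups overlapped in both genes. Their log2 fold changes were -0.02 (95% interval -0.18 to 0.13, FDR 0.827) and -0.08 (-0.23 to 0.08, FDR 0.419, both by edgeR). Neither direction was stable: Aco1 gave 0.014 without DMSO replicate 1 and 0.0073 without GSI replicate 1, and Ireb2 gave 0.065 with trends of GC content and length removed. Leaving out each library in turn gave -0.15 to -0.011 for Ireb2, which did not turn its sign. The activity of both proteins is set after transcription, which counts do not measure.

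**Figure D3:**
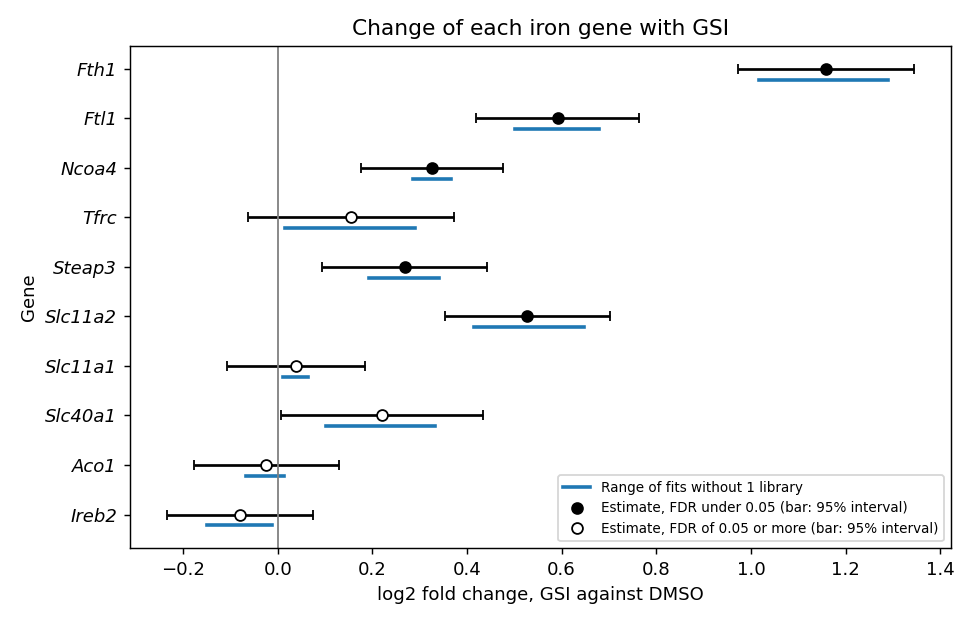
Log2 fold change of each gene with GSI against DMSO (points, filled where the FDR was under 0.05) with its 95% interval (black bars) and, below each, the range of the estimates when 1 of the 4 libraries was left out (blue lines). Fth1, at 1.16, stands apart to the right, Ftl1 (0.59) and Slc11a2 (0.53) follow, and the blue line of Aco1 crosses 0.

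The messages with a known IRE were described as a list that includes Fth1, Ftl1, Slc40a1, Tfrc and Slc11a2. Of 8 tested genes 3 were higher with GSI, all of them among the 10 iron genes, and 0 were lower in edgeR's test. At an unadjusted p under 0.05 the list had 4 higher and 1 lower (Cdc14a, named after its value was seen), and in DESeq2 3 and 0. The messages with an element at the 5′ end in this search gave log2 fold changes of 1.16, 0.59 and 0.22, and the one with elements at the 3′ end gave 0.15. The difference was not tested, and without GSI replicate 1 the value of Tfrc (0.24) was above that of Slc40a1 (0.21).

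Genes of iron handling outside the 10 were split, and here as for the other lists the counts stand beside the share of all tested genes called, which was 40.8% in edgeR's test, 49.1% at an unadjusted p under 0.05 and 28.4% in DESeq2. Of 27 listed genes 13 passed the filter, 4 rose and 3 fell. Slc39a14, a zinc and iron importer of the plasma membrane, fell by 0.60 on the log2 scale (FDR 1.2e-05 by edgeR). Mcoln1, the lysosomal channel that lets out ferrous iron, rose by 0.45 (FDR 4.1e-05). The gene of ceruloplasmin, Cp, the ferroxidase that works with ferroportin, measured 1.63 and 1.76 CPM with DMSO and 3.00 and 3.08 CPM with GSI (log2 fold change 0.84, FDR 5.0e-04). Lcn2, which encodes a trap for bacterial siderophores, rose by 1.85 (FDR 3.2e-04) from a low level of 0.139 and 0.370 CPM to 0.910 and 1.03 CPM. Pcbp1, an iron chaperone that loads ferritin, did not pass at a log2 fold change of 0.12 (FDR 0.169), and neither did Fbxl5, the iron-sensing subunit that marks iron regulatory proteins for decay (-0.08, FDR 0.425). Hamp, the gene of hepcidin, held 1 and 6 counts with DMSO and 1 and 2 with GSI and was not tested.

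Heme is the other source of macrophage iron. Of 12 tested genes of heme uptake, breakdown and transport 2 rose and 4 fell. Hmox1, the heme oxygenase that frees iron from heme, measured 119 and 139 CPM with DMSO and 265 and 244 CPM with GSI. The groups did not overlap, and the log2 fold change was 0.98 (SE 0.08, FDR 6.2e-09 by edgeR), between those of Ftl1 and Fth1. Blvrb, a biliverdin reductase, rose by 0.70 (FDR 1.8e-07). Lrp1, the receptor for heme bound to hemopexin and for many other ligands, fell from 533 and 530 CPM to 204 and 222 CPM (log2 fold change -1.32, FDR 3.2e-11), and the porphyrin exporter Abcg2 fell by 0.56 (FDR 1.8e-04). Hmox1 and Blvrb thus rose while the receptor Lrp1 fell.

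Of 8 tested genes of heme synthesis 3 rose and 1 fell in edgeR's test, while DESeq2 called 0 and 1. Fech, which inserts iron into the porphyrin ring, fell by 0.26 (FDR 0.0087), and Uros, Urod and Alad had log2 fold changes of 0.34, 0.22 and 0.34 (FDR 0.017, 0.047 and 0.047). Of 25 genes of iron-sulfur cluster assembly 10 rose and 0 fell in edgeR's test. At an unadjusted p under 0.05 there were 11 and 0, and in DESeq2 6 and 0. The list's median log2 fold change was 0.17. The lowest FDRs belonged to Hspa9, the mitochondrial chaperone of the pathway (0.74, FDR 1.4e-07), and its partner Hscb (0.43, FDR 8.6e-04), followed by the ferredoxin Fdx1l (0.35, FDR 0.0037) and Bola3 (0.36, FDR 0.0087).

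Fth1, Ftl1 and Hmox1 are textbook targets of NRF2, a transcription factor of the oxidative stress response, and of its competitor BACH1, a repressor that heme inactivates. Of 14 other NRF2 targets 10 rose and 1 fell, and the list's median log2 fold change was 0.34. Prdx1, a peroxiredoxin, measured 886 and 907 CPM with DMSO and 2214 and 2395 CPM with GSI (1.36, FDR 3.8e-11 by edgeR). The glutathione genes Gclm and Gsr rose by 0.85 (FDR 1.4e-08) and 0.78 (FDR 1.6e-07), and Me1, a source of NADPH, rose by 0.84 (FDR 2.2e-05). The member that fell was Txnrd1, the thioredoxin reductase (-0.28, FDR 0.0046), named after its value was seen.

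Nfe2l2, the gene of NRF2 itself, measured 655 and 551 CPM with DMSO and 567 and 519 CPM with GSI. The groups overlapped (log2 fold change -0.15, FDR 0.161 by edgeR). Bach1 fell from 195 and 194 CPM to 135 and 138 CPM (-0.51, FDR 4.6e-06), and Keap1, the adaptor that targets NRF2 for decay, rose by 0.49 (FDR 3.8e-05). Myc, which is known to repress Fth1 and to raise Ireb2, fell by 1.37 (FDR 1.1e-10), and Nr1h3, the gene of the liver X receptor alpha, rose by 0.83 (FDR 2.5e-08). Spic, a factor of iron-recycling macrophages, was low in all libraries, at 1.07 to 1.68 CPM, and did not pass (0.38, FDR 0.166). Over the 14 factors listed 3 rose and 3 fell, and the median log2 fold change was -0.07. These are mRNA values, and neither protein nor binding was measured.

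The machinery that delivers ferritin to the lysosome was split. Of 11 genes 3 rose and 4 fell. Herc2, which encodes a ligase that marks NCOA4 for decay when iron is ample, fell by 0.52 (FDR 6.4e-06 by edgeR), and the autophagy gene Atg9a fell by 0.38 (FDR 7.3e-04). Atg16l1 and Atg5, which act in the lipidation of LC3, rose by 0.38 (FDR 3.9e-04) and 0.31 (FDR 0.0018).

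**Figure D4:**
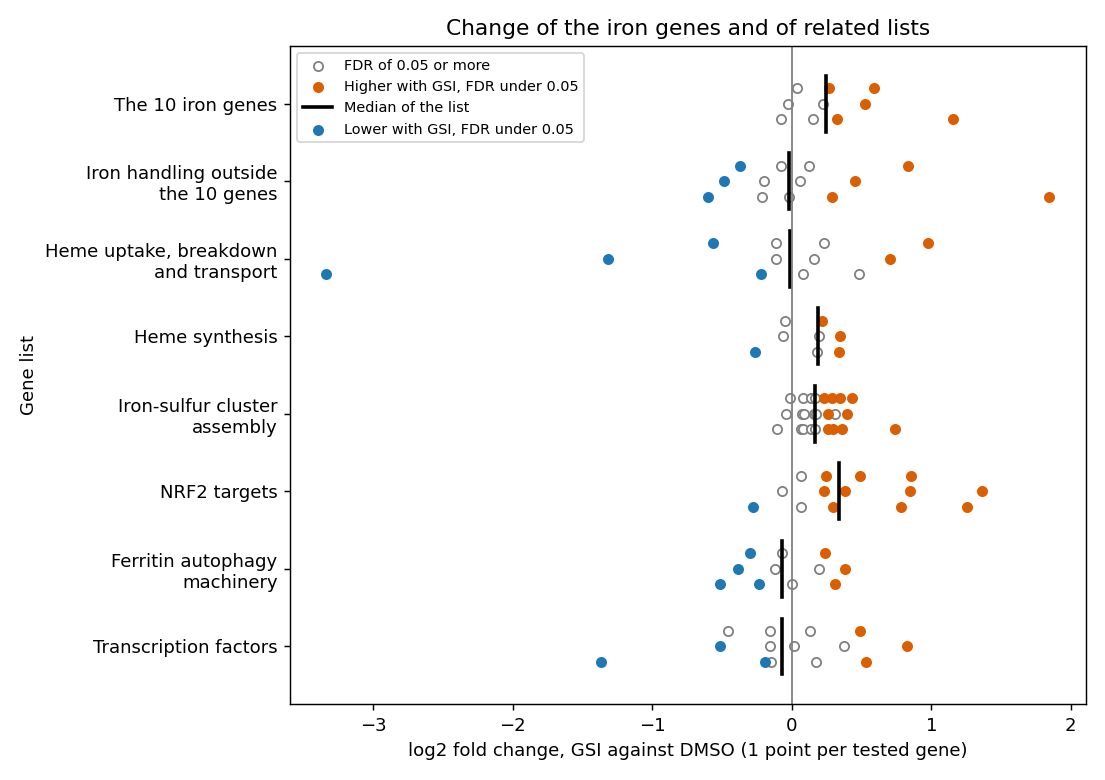
Log2 fold change with GSI against DMSO of each tested gene in the 10 iron genes and in 7 related lists, with 1 point per gene (orange, higher and blue, lower at an FDR under 0.05; white, not called) and the list's median as a black bar. The medians of the iron genes (0.24), of heme synthesis (0.19), of iron-sulfur cluster assembly (0.17) and of the NRF2 targets (0.34) lie to the right of 0, and genes of heme uptake and breakdown lie on both sides.

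Promoters of 8 of the 10 genes, in 15 windows from 250 bases before to 50 bases after an annotated start, were found in RefSeq sequences of GRCm38. The core TGGGAA, to which the Notch partner RBPJ binds, was searched on both strands and was present in 3 of the 15 windows (of Slc11a1, Aco1 and Fth1), a share below the 25.6% of all 32851 windows that held it. In Fth1 it lay in the window of an upstream start, and the window at the start of the principal transcript held none. The NRF2-type core TGACNNNGC was present in 1 of the 15 windows, of Ncoa4, against 12.4% of all windows. A match is a description of the letters and not a site of binding.

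The cells carried macrophage markers, and those moved with the treatment as well. Of 8 macrophage markers 6 fell with GSI (among them Csf1r and Cd14), 1 rose (Mertk) and 1 did not pass (Cd68, named after its value was seen). Cd68 measured 939 and 1001 CPM with DMSO and 1141 and 1058 CPM with GSI (FDR 0.0616 by edgeR). DESeq2 called 2 of the markers higher, Cd68 among them, and 6 lower. Their summed level was 12278 and 12485 CPM with DMSO and 9489 and 10414 CPM with GSI. Of 4 dendritic cell markers 2 were lower with GSI (Clec9a and Xcr1) in edgeR's test, and 1 (Clec9a) in DESeq2. The summed level was 186 and 179 CPM with DMSO against 113 and 115 CPM with GSI. Nearly all of it was Clec9a, at 181 and 174 CPM against 109 and 111 CPM, and 2 of the 4 markers were under 1 CPM in all libraries. Erythroid markers, a possible source of heme and ferritin messages, summed to between 0.0232 and 0.123 CPM, and 6 of the 8 were at 0 in all libraries, the globin genes included. Markers of neutrophils and their precursors summed to at most 1.43 CPM, B cell markers to at most 0.535, T cell markers to at most 1.06 and fibroblast markers to at most 0.162, and the 4 markers of mast cells and basophils were at 0. The part of the shift in macrophage markers, Clec9a and Xcr1 in the changes of the iron genes was not tested. In such bulk samples fewer cells of a type and less RNA per cell cannot be told apart.

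The libraries held between 42694655 and 56932059 counts, so that 3 counts, taken as the lowest detectable number, correspond to between 0.0527 and 0.0703 CPM. The lowest count of any of the 10 genes was 480, for Slc40a1.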

How the data were processed

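Per the labels and the methods, the authors prepared stranded poly(A) libraries, trimmed them with Trimmomatic, aligned them to mm10 with STAR (2.5.0a in the submitters' processing notes, which also list mm9) and used HTSeq for counting. They deposited raw counts of 47069 Ensembl genes in 16 columns, which the labels number as 4 per replicate. The strand setting of the counting is not given in the sources used here. The 4 columns of a replicate differed by about the sampling noise (chi-square per degree of freedom 1.01 to 1.03 over genes with at least 40 counts) and were summed, which gave 2 DMSO and 2 GSI libraries of 42694655, 56932059, 48483661 and 49511733 counts.

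Counts were tested with edgeR 4.0.16 in R 4.3.3 (filterByExpr, TMM, glmQLFit and glmQLFTest, group as the only factor). The standard error is the log2 fold change divided by the square root of F, and intervals use the test's degrees of freedom. DESeq2 1.42.0, other scalings and filters, a replicate block, removal of GC and length trends, and leaving out each library were alternatives. When a library was left out, the lone library was assumed to vary like the other group. Counts were simulated for 13017 genes of these libraries, of which 97 were changed 1.5-fold and 96 were changed 2-fold. Of these 82.5% and 88.5% were called, against 0.0624% of the 12824 unchanged genes. In the real libraries 40.8% of tested genes were called, so these rates are not those of the real test.

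Positions, lengths and UTRs came from GENCODE M21 on GRCm38, which held 98.8% of the gene IDs. The length of a gene was that of its lowest-numbered principal transcript. The 10 genes and the gene lists were chosen with earlier results of these data known. The genes named are the 10, ferritin copies, overlapping genes, the up to 4 genes of each list with the lowest FDR under 0.05, and Hmox1, Hamp, Cp, Fbxl5, Pcbp1, Bach1, Nfe2l2 and Spic, and exceptions are marked. Within a list, the row with the most counts was taken where a symbol had more than 1 row. Copies of genes outside the ferritins were not examined.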

Additional observations from a re-analysis of the deposited data

How the results depend on the processing

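Fth1, Ftl1 and Slc11a2 kept their direction under all alternatives and their call under all that gave a test, except the added fold threshold of 1.5 on the log2 scale, which none of the iron genes passed. The number of iron genes called higher was 4 in DESeq2, 6 with the replicate number as a block and between 4 and 6 when a library was left out, and 0 were called lower in each. Over all genes DESeq2 called 1690 higher and 2343 lower, and the fits without a library called 1820 to 2265 higher and 2342 to 2713 lower. Steap3 lost its call in DESeq2 (log2 fold change 0.26), and Slc40a1 gained one with the replicate block (0.22, FDR 0.0329). The block also raised the calls over all genes to 3130 higher and 3314 lower. The samples share only a number. Over the 13211 tested genes, the deviations of DMSO replicate 1 and GSI replicate 1 from their group means had a correlation of 0.155. With 2 pairs of libraries this cannot show a pairing. Without each library in turn, the log2 fold change was 0.19 to 0.34 for Steap3, 0.10 to 0.33 for Slc40a1 and -0.066 to 0.014 for Aco1, which turned its sign without DMSO replicate 1 (0.014) and without GSI replicate 1 (0.0073), and was not called in either. Of all tested genes 918 were higher and 1528 lower when tested against a 1.2-fold change with glmTreat, chosen after the data were seen, with 3 of the iron genes (Ncoa4 at 0.33 and Steap3 at 0.27 lost the call). With the absolute log2 fold change above 1.5 as well, 98 were higher and 287 lower, with 0 of the iron genes. Removing trends of GC content and length, which gives values with no test, moved Ftl1 to 0.47, Ncoa4 to 0.47, Slc11a1 to -0.040, Slc40a1 to 0.35 and Ireb2 to 0.065, which turned the signs of Slc11a1 and Ireb2, neither of them called. The causes of these shifts were not tested. The 10 genes held at least 480 counts in every library, above the floor of 3.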
